A study of Danio rerio with 4 samples.

Results

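The p53 pathway genes phlda3, mdm2, cdkn1a, ccng1, bbc3 and ddit4 were followed in sorted hepatocytes of zebrafish larvae that lack zc3h8 and of wild-type larvae. The 6 members were found by symbol, whatever its case, among the 33737 Ensembl gene IDs of the deposited RPKM table, whose values are reads per length of gene and per size of library, and each symbol matched 1 ID. phlda3 was chosen because it was high in both mutant libraries, so its level and its difference between genotypes are given as a description. The question was whether phlda3 stands with other p53 targets in these libraries or alone. Of the 6 members, 5 had a mean RPKM of at least 1 over the 4 libraries, the minimum that 11135 genes met (tested genes), and bbc3 had 0 reads in every library.

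There were 4 groups with 1 library each. They held zc3h8-/- mutant cells taken 7.5 or 5.5 days after fertilization (dpf), and wild-type cells of 7.5 or 5.5 dpf. All larvae were of the strain labelled ABGO and carried the transgene Tg(lfabp:Dendra2-NTR), whose liver fatty acid binding protein promoter drives a fusion of the fluorescent protein Dendra2 and nitroreductase in hepatocytes. Livers were dissected, dissociated with trypsin and sorted by flow cytometry, and libraries were made by Smart-seq2, a protocol for full-length cDNA from small inputs. The number of larvae pooled into each library is not stated. With 1 library per group there was no replicate, so no difference at a stage or between stages below has a test, and its intervals cover the counting error of reads only. A fit of the genotype over both stages together is given at the end.

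The transcription factor p53 is held low in unstressed cells by the ubiquitin ligase Mdm2 and is stabilised when DNA, ribosome assembly or replication is disturbed. Its target genes slow the cell cycle, start apoptosis, restrain growth signalling and repair DNA, and mdm2 is itself a target, which closes a feedback loop. In mammalian cells PHLDA3 is a p53 target that holds little more than a pleckstrin homology domain and competes with the kinase AKT for membrane lipids. In the mammalian liver CDKN1A limits the proliferation of injured hepatocytes, and it also responds to inputs other than p53.

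Reads recovered per library numbered 29648253 to 36999723. The share of tested genes at 3 reads or fewer was 23.6 and 26.2% in the mutant libraries of 7.5 and 5.5 dpf, against 34.2 and 18.6% in the wild-type libraries, so on and off patterns were common. All 11 matched hepatocyte marker genes had more than 3 reads in each library. Their summed RPKM was 19059 and 41571 in mutant cells at 7.5 and 5.5 dpf, against 57204 and 77332 in wild-type cells. 9 of the 11 were 2-fold lower in mutant cells at 7.5 dpf and 5 at 5.5 dpf (81.8 and 45.5%), against 23.1 and 25.6% of all tested genes. 0 were higher, against 40.0 and 28.0%. Median-ratio scaling sets the median of genes detected in all 4 libraries level. Under it 11 were lower at 7.5 dpf and 6 at 5.5 dpf (100 and 54.5%), against 26.2 and 28.7% of all tested genes. The part of these lower marker levels in the values below was not tested. No gene ID carried the symbol zc3h8, so the genotype labels were not checked by the targeted gene. A lower number of cells of a type and less RNA per cell cannot be told apart in such bulk libraries.

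phlda3 (ENSDARG00000037804) was at 63.8 RPKM in the 7.5 dpf mutant library and 119 RPKM in the 5.5 dpf mutant library, against 0.018 RPKM at 7.5 dpf and 0 RPKM at 5.5 dpf in wild type. In reads these values stand for 2811 and 6449 in the mutant libraries, against 1 and 0 in the wild-type libraries. Both mutant libraries were high and both wild-type libraries were at or next to zero, with no overlap. The authors' deposited table gives a log2 fold change of 11.78 at 7.5 dpf and 13.64 at 5.5 dpf, with a small value set in place of 0 reads. At 5.5 dpf the mutant level was at least 2126-fold higher, taking 3 reads as the limit that 0 reads allow in a library. At 7.5 dpf it was 3508-fold higher, with a 95% counting interval of 629 to 138607 that reflects the single wild-type read. Among the tested genes, the difference of log2(RPKM + 1) for phlda3, 5.99 at 7.5 dpf and 6.91 at 5.5 dpf, ranked 81 and 3 from the top. Differences on this scale understate the change of low genes. Between the mutant libraries, phlda3 at 7.5 dpf was at 0.534 of its 5.5 dpf level (0.511 to 0.559).

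**Figure D1:**
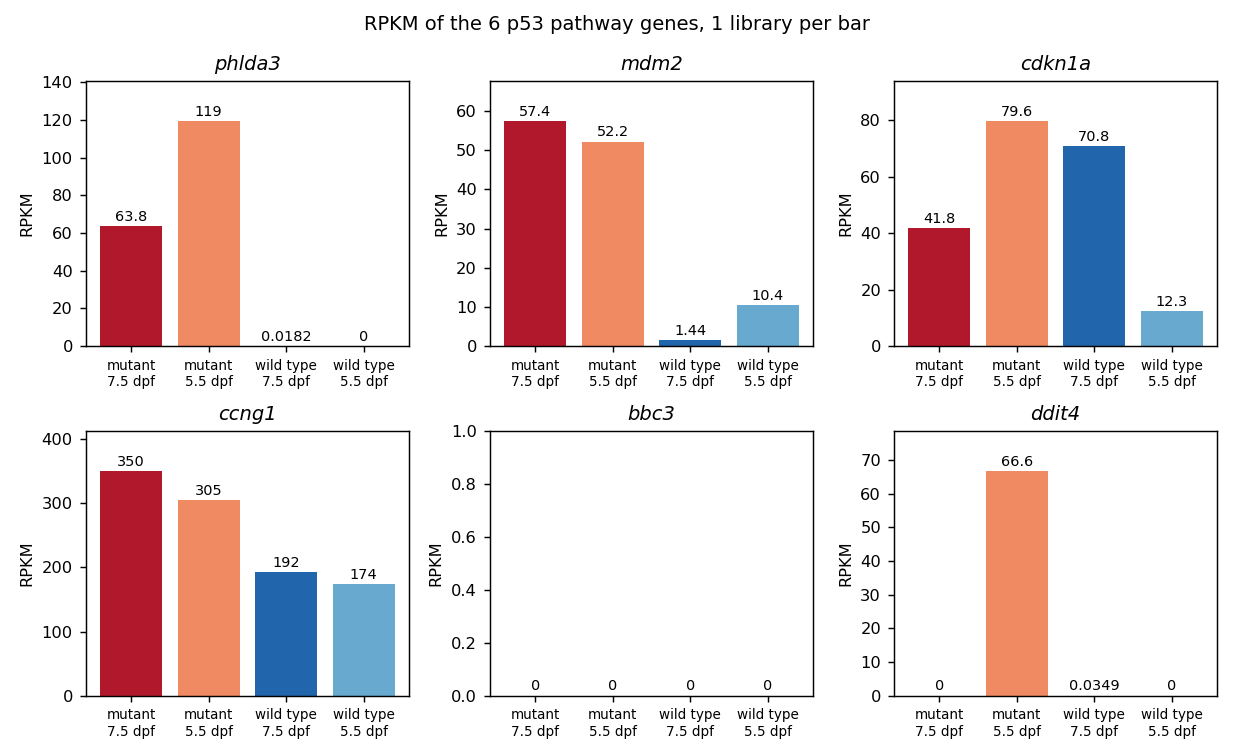
Bars give the RPKM of each member in each library (1 library per bar, linear axis from 0, a separate scale for each gene), with mutant bars left of wild-type bars. phlda3 and mdm2 were high in both mutant libraries, ccng1 was above 174 RPKM in all 4, ddit4 was high in 1 library and bbc3 had 0 reads throughout.

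mdm2 (ENSDARG00000033443), the ligase that marks p53 for degradation, was the member most like phlda3. It was at 57.4 and 52.2 RPKM in mutant cells at 7.5 and 5.5 dpf, against 1.44 and 10.4 RPKM in wild-type cells at 7.5 and 5.5 dpf. Both mutant libraries lay above both wild-type libraries, but unlike phlda3 the gene was well detected in wild type, with 175 and 1224 reads. The mutant level was 39.8-fold higher at 7.5 dpf (95% counting interval 34.2 to 46.5) and 5.03-fold higher at 5.5 dpf (4.73 to 5.35). The 2 mutant libraries lay close together, with a counting interval of 1.06 to 1.14 for the ratio of 7.5 to 5.5 dpf, while in wild type the 7.5 dpf level was 7.20-fold lower than at 5.5 dpf (6.14 to 8.48). The wider gap at 7.5 dpf thus lies in the wild-type value, not in the mutant one.

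ccng1 (ENSDARG00000076667), which encodes cyclin G1, a p53 target that acts back on Mdm2 through protein phosphatase 2A, was the most abundant member in every library. Its level was 350 and 305 RPKM in mutant cells at 7.5 and 5.5 dpf, against 192 and 174 RPKM in wild-type cells. The order of the libraries placed both mutants above both wild types, with a small gap. The share of all tested genes with that order was not counted. The ccng1 difference of log2(RPKM + 1) ranked 4683 of 11135 tested genes at 7.5 dpf and 3567 at 5.5 dpf. Below it lay 57.9 and 68.0% of tested genes. The ratio of mutant to wild type was 1.82 at 7.5 dpf (95% counting interval 1.79 to 1.86) and 1.75 at 5.5 dpf (1.71 to 1.78), under the 2-fold size used here. The log2 differences of 0.86 and 0.80 came to 0.43 and 0.50 under median-ratio scaling, which sets the median of genes detected in all 4 libraries level.

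cdkn1a (ENSDARG00000076554) encodes p21, the inhibitor of cyclin-dependent kinases that carries much of the p53 arrest. It was at 41.8 and 79.6 RPKM in mutant cells at 7.5 and 5.5 dpf, against 70.8 and 12.3 RPKM in wild-type cells at 7.5 and 5.5 dpf. Here the genotypes overlapped: from the highest value down, the libraries were mutant at 5.5 dpf, wild type at 7.5 dpf, mutant at 7.5 dpf and wild type at 5.5 dpf. At 5.5 dpf the mutant level was 6.46-fold higher (95% counting interval 6.04 to 6.91), and at 7.5 dpf it was 1.69-fold lower (1.62 to 1.77). Wild-type cells at 7.5 dpf were 5.74-fold above those at 5.5 dpf (5.37 to 6.15), whereas mutant cells at 7.5 dpf were 1.90-fold below those at 5.5 dpf (1.82 to 1.99). The 7.5 dpf difference between genotypes, -0.74 on the log2 scale, was -1.17 under median-ratio scaling and so past 2-fold.

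ddit4 (ENSDARG00000037618) encodes REDD1, which restrains the growth kinase complex mTORC1 and responds to hypoxia, glucocorticoids and amino acid shortage as well as to p53. It was at 0 and 66.6 RPKM in mutant cells at 7.5 and 5.5 dpf, against 0.035 and 0 RPKM in wild-type cells. In reads these are 0 and 3757 in the mutant libraries, against 2 and 0 in the wild-type libraries. The gene was thus read out in the 5.5 dpf mutant library and was at 2 reads or fewer in the other three. At 5.5 dpf it was at least 1239-fold higher in mutant than in wild type. In mutant cells it was at least 1021-fold lower at 7.5 than at 5.5 dpf, while phlda3 stayed within 2-fold between those libraries. No fold is given at 7.5 dpf, where both genotypes were at or under 3 reads.

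bbc3 (ENSDARG00000069282), the gene of the pro-apoptotic protein Puma, had 0 reads in all 4 libraries. The limit that 0 reads allow, 3 reads, is 0.101 and 0.0825 CPM (reads scaled to the size of the library) in mutant libraries at 7.5 and 5.5 dpf, against 0.0811 and 0.0834 CPM in wild-type libraries. A difference in bbc3 under these limits was therefore not detectable. Why the gene had 0 reads was not tested.

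In all, 2 of the 5 tested members, phlda3 and mdm2, were 2-fold higher in mutant cells at 7.5 dpf, where 40.0% of all tested genes were, and 4 of 5 (phlda3, mdm2, cdkn1a and ddit4) at 5.5 dpf, where 28.0% of all tested genes were. No tested member was 2-fold lower in mutant cells at either stage, against 23.1% of all tested genes at 7.5 dpf and 25.6% at 5.5 dpf. Under median-ratio scaling cdkn1a was 2-fold lower at 7.5 dpf (-1.17 on the log2 scale), as were 26.2% of all tested genes. Since phlda3 was chosen on these comparisons, nothing is read from its part in these counts.

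A wider p53 list of 52 symbols was drawn up by role, the members included, with earlier results of these data known. Of these symbols, 3 (aen, tsc2 and rps27l) had no match and are not analysed here. The others gave 49 gene IDs, 8 of them through a symbol in capitals that does not tell copies of a gene apart. The symbol table gives that symbol to several IDs for PPM1D, GADD45B and PLK2, and to 1 ID for GADD45A and BAX. Genes matched this way carry their ID below. Where a symbol has several IDs, reads of near-identical copies could be split between them. 42 of the 49 IDs were tested. Besides bbc3, the IDs under the minimum were tp73, e2f7 and zmat3, at 0 RPKM in each library, and fas, pidd1 and fdxr, at no more than 2.44 RPKM in any.

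**Figure D2:**
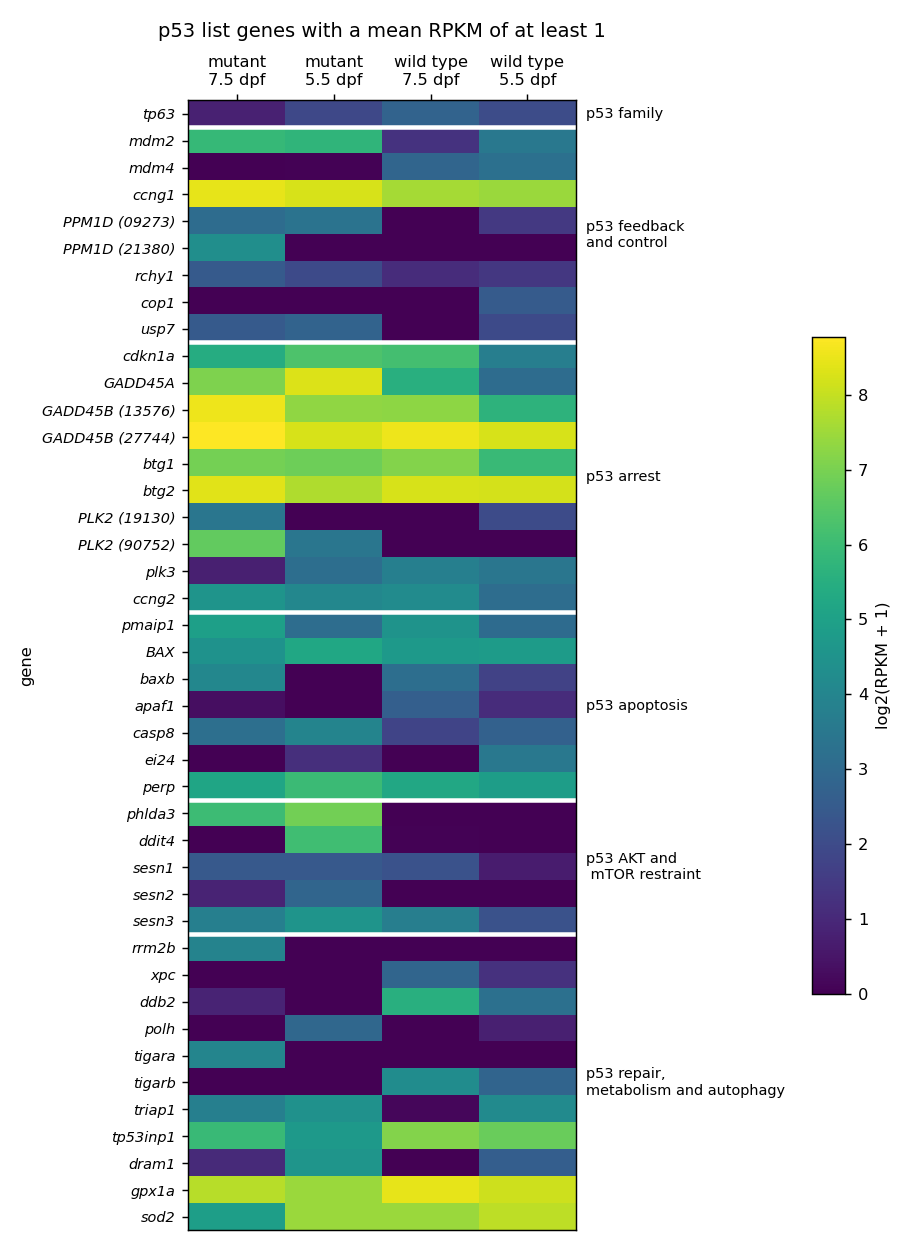
Colour gives log2(RPKM + 1) of the 42 tested p53 list genes (rows, by role) in the 4 libraries (columns, mutant left of wild type), with the last 5 digits of the ID where a symbol has several copies. mdm2, GADD45A and phlda3 were brighter in both mutant columns, and mdm4, xpc, ddb2 and tigarb were darker in both.

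tp63, which encodes the p53 family member of epithelia, was at 0.762 and 2.70 RPKM in mutant cells, against 5.97 and 3.09 RPKM in wild-type cells.

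Among genes that control p53, mdm4 went against mdm2. mdm4, whose product binds and inhibits p53 beside Mdm2, was at 0 and 0.030 RPKM in mutant cells at 7.5 and 5.5 dpf, against 6.29 and 8.52 RPKM in wild-type cells. PPM1D (ENSDARG00000009273), a phosphatase gene and p53 target that switches the response off, was at 7.65 and 9.08 RPKM in mutant cells, against 0.011 and 1.78 RPKM in wild-type cells. The other PPM1D copy (ENSDARG00000021380) was read in the 7.5 dpf mutant library alone, at 19.1 RPKM. Of the 8 tested genes of this role, 5 were 2-fold higher and 1 lower at 7.5 dpf (62.5 and 12.5%), against 40.0 and 23.1% of all tested genes, and 2 were higher and 2 lower at 5.5 dpf (25.0% each), against 28.0 and 25.6%. cop1, a ubiquitin ligase gene for p53, was 1 of the 2 lower at 5.5 dpf, with 4.72 RPKM in the wild-type library of that stage and 0 in each of the others.

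Of the 10 tested arrest genes, 4 were 2-fold higher and 1 was lower at each stage (40 and 10%), against 40.0 and 23.1% of all tested genes at 7.5 dpf and 28.0 and 25.6% at 5.5 dpf. GADD45A (ENSDARG00000043581), whose product acts in growth arrest and stress kinase signalling, was at 134 and 314 RPKM in mutant cells at 7.5 and 5.5 dpf, against 45.1 and 7.68 RPKM in wild-type cells. Both mutant libraries were above both wild types, by 2.97-fold at 7.5 dpf (95% counting interval 2.82 to 3.13) and 40.9-fold at 5.5 dpf (36.7 to 45.6). Like cdkn1a, GADD45A was higher at 7.5 than at 5.5 dpf in wild type, at 5.87-fold (5.24 to 6.60), and lower at 7.5 dpf in mutant cells, at 2.34-fold (2.27 to 2.42). PLK2 (ENSDARG00000090752), a polo-like kinase gene, was at 100 and 9.96 RPKM in mutant cells, against 0 RPKM in both wild-type libraries. The second PLK2 copy and plk3 were not of that kind. PLK2 (ENSDARG00000019130) was at 9.85 and 0.011 RPKM in mutant cells, against 0 and 2.98 RPKM in wild-type cells. plk3 was at 0.700 and 8.05 RPKM in mutant cells, against 12.9 and 9.81 RPKM in wild-type cells. These values put the genotypes in different orders at the 2 stages or close together at 5.5 dpf. GADD45B (ENSDARG00000013576) was at 373 and 159 RPKM in mutant cells, against 156 and 50.6 RPKM in wild-type cells, and its 7.5 dpf difference, 1.26 on the log2 scale, came to 0.82 under median-ratio scaling.

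Of 7 tested apoptosis genes, 1 was 2-fold higher and 1 lower in mutant cells at 7.5 dpf (14.3% each), against 40.0 and 23.1% of all tested genes. At 5.5 dpf 2 were higher and 3 lower (28.6 and 42.9%), against 28.0 and 25.6%. The caspase gene casp8 was higher at both stages, at 8.32 and 14.5 RPKM in mutant cells, against 2.47 and 5.67 RPKM in wild-type cells. Its 5.5 dpf difference of 1.22 on the log2 scale was 0.94 under median-ratio scaling. apaf1, the gene of the apoptosome scaffold, was lower at both stages, at 0.258 and 0.011 RPKM in mutant cells, against 5.30 and 1.17 RPKM in wild-type cells. perp, a p53 target of epithelial junctions, was at 34.8 and 62.6 RPKM in mutant cells, against 37.6 and 28.4 RPKM in wild-type cells, and its 5.5 dpf difference of 1.11 was 0.82 under median-ratio scaling. BAX (ENSDARG00000020623), whose product opens the mitochondrial outer membrane, lay between 21.1 and 36.9 RPKM in all 4 libraries.

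The role that holds phlda3 and ddit4, restraint of AKT and mTOR, stood differently at the 2 stages, a contrast that was not tested. At 5.5 dpf all 5 of its genes tested and reported here, phlda3, ddit4, sesn1, sesn2 and sesn3, were 2-fold higher in mutant cells. At 7.5 dpf 1 of 5, phlda3, was higher and 0 were lower. The share of higher genes over all tested genes was 28.0% at 5.5 dpf and 40.0% at 7.5 dpf. phlda3 was chosen on these comparisons, and ddit4 with their results known. phlda3, ddit4 and sesn2 also met the minimum mean through mutant libraries alone, so they could not have been counted as lower. Nothing is therefore read from the count of 5 of 5. The sestrin gene sesn3, which restrains mTORC1, was at 12.7 and 22.3 RPKM in mutant cells, against 12.5 and 3.64 RPKM in wild-type cells, so that the genotypes were level at 7.5 dpf (ratio 1.01, 0.940 to 1.08) and 6.12-fold apart at 5.5 dpf (5.56 to 6.75). Its 7.5 dpf difference of 0.01 on the log2 scale was -0.39 under median-ratio scaling. sesn2, like ddit4, was highest in the 5.5 dpf mutant library, at 0.815 and 6.33 RPKM in mutant cells, against 0 RPKM in both wild-type libraries. sesn1 was at 4.48 and 4.42 RPKM in mutant cells, against 3.59 and 0.590 RPKM in wild-type cells.

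Genes of repair, metabolism and autophagy stood on both sides. Of 11 tested, 4 were 2-fold higher and 5 lower at 7.5 dpf (36.4 and 45.5%), against 40.0 and 23.1% of all tested genes, and 2 were higher and 4 lower at 5.5 dpf (18.2 and 36.4%), against 28.0 and 25.6%. The nucleotide excision repair gene ddb2, a p53 target in human cells, was at 0.822 and 0 RPKM in mutant cells, against 45.4 and 8.52 RPKM in wild-type cells. xpc, which acts with it, was at 0 RPKM in both mutant libraries, against 6.27 and 1.40 RPKM in wild-type cells. The ribonucleotide reductase gene rrm2b was read in the 7.5 dpf mutant library alone, at 14.2 RPKM, as was tigara, at 14.8 RPKM, while its paralog tigarb was at 0 RPKM in both mutant libraries, against 18.3 and 6.17 RPKM in wild-type cells. TIGAR lowers glycolytic flux in mammalian cells. tp53inp1, a p53 target that acts in apoptosis and autophagy, was at 61.3 and 25.6 RPKM in mutant cells, against 141 and 109 RPKM in wild-type cells, 2.31-fold lower at 7.5 dpf (95% counting interval 2.21 to 2.41) and 4.25-fold lower at 5.5 dpf (4.01 to 4.50).

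Over the whole p53 list, 15 of 42 genes were 2-fold higher and 9 lower in mutant cells at 7.5 dpf, that is 35.7 and 21.4%, against 40.0 and 23.1% of all tested genes. At 5.5 dpf 15 were higher and 10 lower, that is 35.7 and 23.8%, against 28.0 and 25.6% of all tested genes. The list's median difference on the log2 scale was 0.25 at 7.5 dpf, against 0.33 over all tested genes, and 0.33 at 5.5 dpf, against 0.00. Without the members, 13 of the other 37 genes (35.1%) were higher and 9 lower at 7.5 dpf, with a median of 0.24, and 11 (29.7%) were higher and 10 lower at 5.5 dpf, with a median of 0.00. The list thus lay close to the background at 7.5 dpf, and at 5.5 dpf its share of higher genes was above the background with the members and close to it without them. Median-ratio scaling moved the median of all tested genes at 7.5 dpf to 0.03, and that of the list to 0.00.

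**Figure D3:**
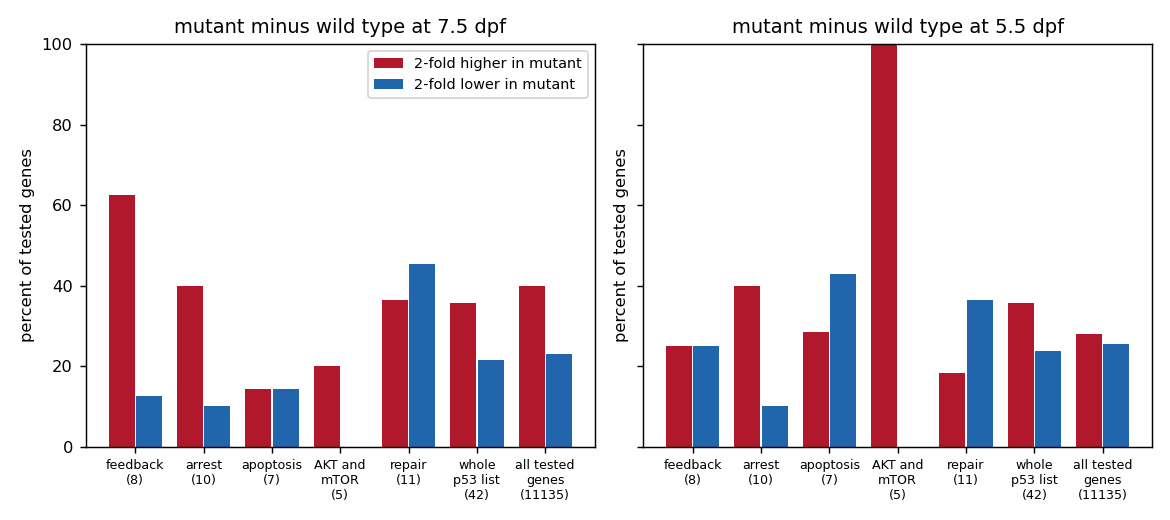
Bars give the percent of tested genes that were 2-fold higher or 2-fold lower in mutant than in wild type at 7.5 dpf (left) and 5.5 dpf (right), by p53 role, for the whole list and for all tested genes, with the number of tested genes in brackets. The whole list stood at 35.7% higher at both stages, against 40.0 and 28.0% of all tested genes, and all 5 genes of the AKT and mTOR role were higher at 5.5 dpf. Of these 5, phlda3, ddit4 and sesn2 met the minimum mean through mutant libraries alone.

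The genotype comparisons at the 2 stages use different libraries, so a gene that is higher at both was seen in 2 separate pairs. On the p53 list, 8 of 42 genes (19.0%) were 2-fold higher at both stages, against 12.1% of all tested genes, and 6 (14.3%) were 2-fold lower at both, against 7.73%. The 8 higher genes were mdm2, PPM1D (ENSDARG00000009273), GADD45A, GADD45B (ENSDARG00000013576), PLK2 (ENSDARG00000090752), casp8, phlda3 and the autophagy gene dram1. Of these, GADD45B at 7.5 dpf, casp8 at 5.5 dpf and dram1 at 7.5 dpf (0.85, unscaled 1.04) were within 2-fold under median-ratio scaling. That left 5 of 42 (11.9%), against 8.68% of all tested genes. Without the members it left 3 of 37 (8.11%), a share close to that of all tested genes. Of the 8, phlda3 and mdm2 are members, and phlda3 was chosen on these comparisons, so nothing is read from its part here. The 6 lower genes were mdm4, apaf1, xpc, ddb2, tigarb and tp53inp1. With the stricter rule that both mutant libraries lie 2-fold above both wild-type libraries, 5 of 42 list genes (11.9%) passed, against 8.75% of all tested genes. Without the members, 3 of 37 (8.11%) passed, a share close to that of all tested genes. The 5 were mdm2, PPM1D (ENSDARG00000009273), GADD45A, PLK2 (ENSDARG00000090752) and phlda3. The opposite rule took 4 list genes (9.52%), mdm4, xpc, ddb2 and tigarb, against 5.96% of all tested genes. These 2 rules were set after the values had been seen. Under median-ratio scaling the same 5 genes were above, against 6.47% of all tested genes, and the same 4 and tp53inp1 were below, against 7.36%.

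**Figure D4:**
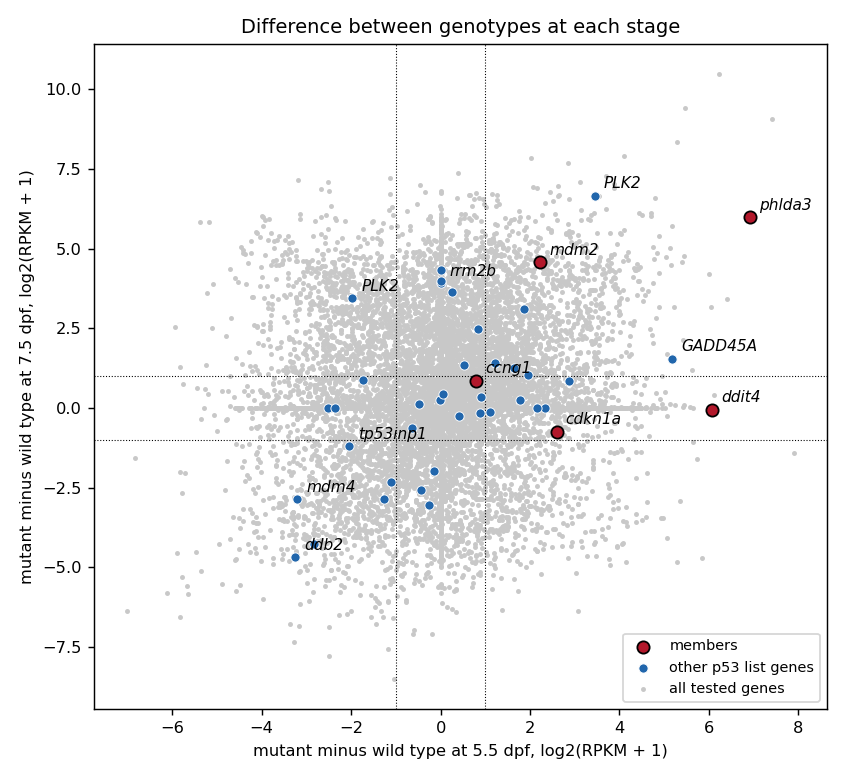
Each point is a tested gene, with the mutant minus wild-type difference of log2(RPKM + 1) at 5.5 dpf on the x axis and at 7.5 dpf on the y axis, members in red, other p53 list genes in blue, the rest in grey, and dotted lines at 2-fold. phlda3 lies at the upper right with 6.91 and 5.99, mdm2 lies in the same corner closer in, and ddit4 and cdkn1a lie at or below 0 on the y axis.

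The on and off pattern of phlda3, which follows from the values it was chosen on, was looked for in other genes as a description. A rule of 3 reads or fewer in both wild-type libraries with an RPKM of at least 10 in both mutant libraries was met by 51 of 11135 tested genes (0.458%), and phlda3 was the 1 list gene among them. PLK2 (ENSDARG00000090752) had 7954 and 967 reads in the mutant libraries, against 0 and 0 in the wild-type libraries. It missed the rule only by its 9.96 RPKM at 5.5 dpf. With an RPKM of at least 1 in both mutant libraries, 240 of 11135 tested genes met the rule. The near miss of PLK2 was picked out after its values were seen, so nothing is read from it. Ranked by the lower of the 2 mutant values, phlda3 was second of the 51, after the neuropeptide gene CARTPT (ENSDARG00000035852) at 532 and 170 RPKM in mutant cells, against 0 RPKM in both wild-type libraries. The opposite pattern, with the genotypes exchanged, was met by 27 genes, 0 of them on the list.

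The 8 genes closest to phlda3 over the 4 libraries held no p53 list gene. With 42 list genes among 11135 tested genes, a list this small would seldom have a gene there, so nothing is read from it. The distance also uses the values that phlda3 was chosen on. Likeness was taken as the Euclidean distance of log2(RPKM + 1) over 4 libraries, among 9080 other tested genes with a symbol. The closest 8 included GNG2, CPSF2, FRG1, POLR3E, tmem176l.2, si:dkeyp-82a1.6 and atp1a1a.3, at distances of 1.61 to 2.26. GNG2, a G protein subunit gene, was at 31.3 and 61.6 RPKM in mutant cells, against 0 and 0.782 RPKM in wild-type cells. The closest list genes were PLK2 (ENSDARG00000090752) at rank 90 and mdm2 at rank 162, followed by PPM1D (ENSDARG00000009273) at rank 527, while ddit4 was at rank 1656. Distance over 4 values also reflects the level of a gene, and depth and amplification are shared by all genes of a library.

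The related gene phlda2, a PHLDA family member known from placental growth in mammals, was also higher in both mutant libraries, though from a high base. It was at 1319 and 721 RPKM in mutant cells at 7.5 and 5.5 dpf, against 243 and 172 RPKM in wild-type cells. The ratio was 5.44 at 7.5 dpf (95% counting interval 5.31 to 5.57) and 4.21 at 5.5 dpf (4.09 to 4.33). Unlike phlda3, it was 1.83-fold higher at 7.5 than at 5.5 dpf in mutant cells (1.80 to 1.86). Of the AKT kinase genes with a match, akt2 was at 1.82 and 0.308 RPKM in mutant cells, against 0 and 2.88 RPKM in wild-type cells, and akt3b was read in the 7.5 dpf mutant library alone, at 15.2 RPKM.

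Cell cycle genes that p53 is known to lower through p21 stood as follows. Of 11 tested, 5 were 2-fold higher and 0 lower in mutant cells at 7.5 dpf (45.5 and 0%), against 40.0 and 23.1% of all tested genes. At 5.5 dpf 3 were higher and 3 lower (27.3% each), against 28.0 and 25.6%, so that the shares of higher genes were near the background at both stages. The share of lower genes was under the background at 7.5 dpf and near it at 5.5 dpf. Under median-ratio scaling 1 of 11 was lower at 7.5 dpf (9.09%), against 26.2% of all tested genes. The mitotic kinase gene plk1, just under the minimum, had 375 reads in wild-type cells at 5.5 dpf and 0 in the other libraries. The replication clamp gene pcna was at 189 and 139 RPKM in mutant cells, against 29.6 and 60.3 RPKM in wild-type cells, 6.39-fold higher at 7.5 dpf (95% counting interval 6.05 to 6.74) and 2.30-fold higher at 5.5 dpf (2.21 to 2.40). The 5.5 dpf difference of 1.19 on the log2 scale was 0.89 under median-ratio scaling. cdk1, another mitotic kinase gene, was at 27.8 and 13.3 RPKM in mutant cells, against 0 and 9.62 RPKM in wild-type cells.

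Other inputs known for ddit4 were set beside it. Of the 9 tested genes of the ATF4 and unfolded protein response list, 1 was 2-fold higher and 0 lower in mutant cells at 7.5 dpf, and 1 was higher and 1 lower at 5.5 dpf, all shares under those of all tested genes. The higher gene was cebpb at 7.5 dpf and the pseudokinase gene trib3 at 5.5 dpf, and the lower one was asns, a gene of asparagine synthesis. trib3 was at 59.8 and 75.5 RPKM in mutant cells, against 46.8 and 35.3 RPKM in wild-type cells, and its 5.5 dpf difference of 1.08 was 0.78 under median-ratio scaling. The cebpb difference of 1.07 at 7.5 dpf likewise came to 0.64. Of 5 tested hypoxia genes, 2 were 2-fold higher and 0 lower at 7.5 dpf, against 40.0 and 23.1% of all tested genes, and 4 were higher and 0 lower at 5.5 dpf, against 28.0 and 25.6%. Under median-ratio scaling 2 of 5 were higher at 5.5 dpf (40%), against 23.6% of all tested genes. VEGFA (0.97, unscaled 1.25) and PFKFB4 (0.80, unscaled 1.06) came within 2-fold. At 7.5 dpf the scaling put 1 of 5 lower, PFKFB4 at -1.10 (unscaled -0.70), against 26.2% of all tested genes. ankrd37 was, like ddit4, read in the 5.5 dpf mutant library alone, at 14.5 RPKM, and met the minimum mean through it. pfkfb3 was instead highest in the 7.5 dpf mutant library, at 19.7 and 8.38 RPKM in mutant cells, against 0 and 6.25 RPKM in wild-type cells. Its difference on the log2 scale was 4.38 at 7.5 dpf and 0.37 at 5.5 dpf. egln3, the oxygen sensor gene that hypoxia induces, was at 2.24 and 77.9 RPKM in mutant cells at 7.5 and 5.5 dpf, against 0 and 20.6 RPKM in wild-type cells. Of 6 tested glucocorticoid genes, 3 were higher and 3 lower at 5.5 dpf (50.0% each), against 28.0 and 25.6% of all tested genes. At 7.5 dpf 0 were higher and 3 lower (0 and 50.0%), against 40.0 and 23.1%. Under median-ratio scaling 2 of the 6 were higher at 5.5 dpf (33.3%), against 23.6% of all tested genes. The receptor gene nr3c1 was at 0.361 and 0.016 RPKM in mutant cells, against 7.67 and 17.1 RPKM in wild-type cells.

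**Figure D5:**
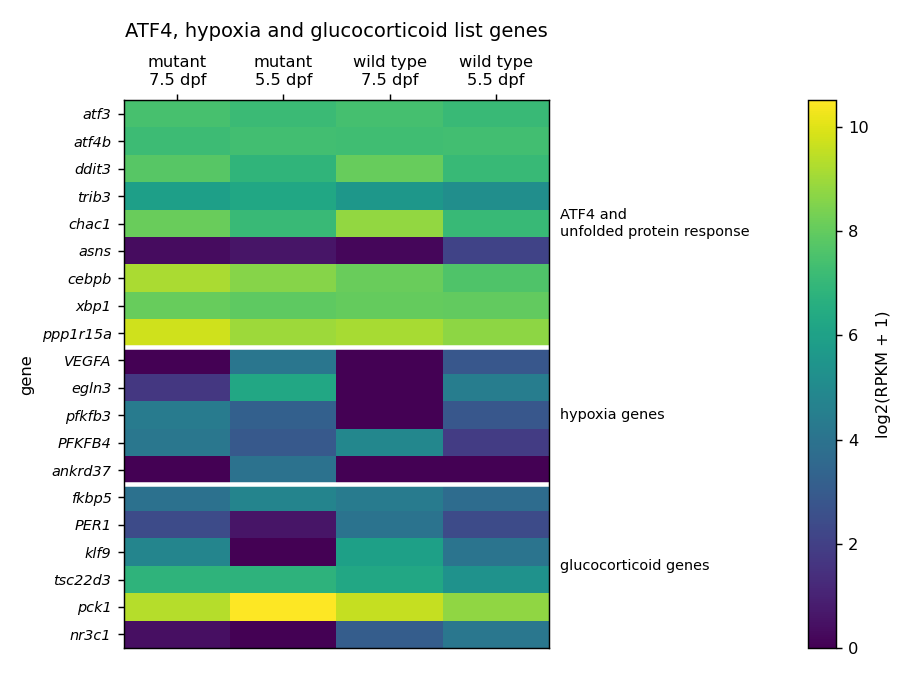
Colour gives log2(RPKM + 1) of the tested genes of the ATF4, hypoxia and glucocorticoid lists (rows) in the 4 libraries (columns, mutant left of wild type). ankrd37 was read in the 5.5 dpf mutant library alone, egln3 was highest there at 77.9 RPKM, and trib3 lay between 35.3 and 75.5 RPKM over the libraries.

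Between stages, 9 of 42 p53 list genes were 2-fold higher and 9 lower at 7.5 than at 5.5 dpf in mutant cells, against 33.8 and 26.2% of all tested genes. In wild-type cells 13 were higher and 8 lower, against 21.4 and 30.1% of all tested genes. Of the tested members, ddit4 alone passed 2-fold between stages in mutant cells, and it was lower. In wild-type cells cdkn1a was higher and mdm2 lower by that measure, and phlda3 and ddit4 were at or under 2 reads at both stages. The phlda3 difference between stages in mutant cells, -0.89 on the log2 scale, was -1.06 under median-ratio scaling and then past 2-fold.

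Markers of other cells also differed between the libraries. The 14 matched macrophage gene IDs summed to 198 and 26.1 RPKM in mutant cells at 7.5 and 5.5 dpf, against 8.93 and 14.3 RPKM in wild-type cells. Of these IDs, 11 and 6 had more than 3 reads in mutant cells, against 3 and 3 in wild-type cells. The macrophage receptor gene marco was at 58.1 RPKM in the 7.5 dpf mutant library and at 0 in the others, including the 5.5 dpf mutant library. Other macrophage IDs were read in that library. mfap4 (ENSDARG00000090557) was at 20.9 and 18.4 RPKM in mutant cells, against 0 and 4.48 RPKM in wild-type cells. At 7.5 dpf 8 of the 9 tested macrophage IDs were 2-fold higher and 0 lower (88.9 and 0%), against 40.0 and 23.1% of all tested genes. Several, marco among them, met the minimum mean through the 7.5 dpf mutant library alone. At 5.5 dpf 3 of the 9 tested macrophage IDs were 2-fold higher and 1 lower (33.3 and 11.1%), against 28.0 and 25.6% of all tested genes. The 4 neutrophil IDs summed to 118 and 18.6 RPKM in mutant cells, against 3.26 and 9.55 RPKM in wild-type cells. Of these, mmp13a was at 43.4 and 15.5 RPKM in mutant cells, against 0 RPKM in both wild-type libraries. It was among the 51 genes with the on and off pattern of phlda3. At 7.5 dpf 3 of the 4 were 2-fold higher and 0 lower (75 and 0%), against 40.0 and 23.1% of all tested genes. At 5.5 dpf 2 of the 4 were 2-fold higher and 1 lower (50.0 and 25.0%), against 28.0 and 25.6% of all tested genes. The lower ID on both lists was lyz, at 0 RPKM in mutant cells at 5.5 dpf, against 9.55 RPKM in wild-type cells. It made up the neutrophil sum of that wild-type library and most of its macrophage sum. Macrophage and neutrophil sums were highest at 7.5 dpf in mutant cells, and at 5.5 dpf they were also above those of wild type. The 13 biliary and stellate IDs summed to 2472 and 835 RPKM in mutant cells, against 897 and 569 RPKM in wild-type cells. Most of each sum was krt8 and krt18a.1, whose 5.5 dpf differences were 0.12 and 0.04 under median-ratio scaling. Of 12 tested IDs, 10 were 2-fold higher and 2 lower at 7.5 dpf (83.3 and 16.7%), against 40.0 and 23.1% of all tested genes. At 5.5 dpf 7 were higher and 2 lower (58.3 and 16.7%), against 28.0 and 25.6%. Under median-ratio scaling 7 of 12 were higher at 7.5 dpf (58.3%), against 35.2% of all tested genes. At 5.5 dpf 5 were higher under it (41.7%), against 23.6%, and 2 were lower at each stage. The 12 exocrine pancreas IDs summed to 509 and 45.5 RPKM in mutant cells, against 1952 and 460 RPKM in wild-type cells. The 7 erythroid IDs summed to 47.3 and 19.1 RPKM in mutant cells, against 17.1 and 12.4 RPKM in wild-type cells. They stood on both sides. Of 4 tested, 2 were 2-fold higher and 1 lower at 7.5 dpf (50.0 and 25.0%), against 40.0 and 23.1% of all tested genes. At 5.5 dpf 1 was higher and 1 lower (25.0% each), against 28.0 and 25.6%. SLC4A1 (ENSDARG00000024560) was at 0 RPKM in mutant cells at 7.5 dpf, against 16.5 RPKM in wild-type cells. The 3 endothelial IDs summed to 0 and 0 RPKM in mutant cells, against 0.253 and 0 RPKM in wild-type cells. The part of these cells in the values of the p53 genes was not tested.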

How the data were processed

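Livers were sorted for fluorescent hepatocytes and sequenced by Smart-seq2, per the labels' protocols. The processing notes of the submitters name DESeq (version 1.16.0), HTSeq (version 0.6.0), TopHat2 (version 2.0.12) and Bowtie2 (version 2.2.3), without saying what each did. Genome build, annotation and strand use are not stated. The authors deposited RPKM per gene, and 4 comparison tables with CPM columns, a fold change (ratio), a log2 fold change, a p-value and an adjusted p-value. Per the file headers these are the authors' own comparisons, and their p-values were not used. In the CPM columns 86618 of 86618 values above 0 reads (100%) were whole multiples of 1 step per library within 0.01 of a read, which gave whole reads. 62 values of tested genes were filled from RPKM. PCR reads without molecular identifiers are not independent molecules.

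Differences of log2(RPKM + 1) were taken with Python 3.11.15, pandas 2.3.3 and SciPy 1.17.1 for genes with a mean RPKM of at least 1, and genes past 2-fold were counted. Counting intervals are exact 95% intervals for the ratio of a pair of read counts. A symbol table matched 21939 of 33737 IDs. Named genes were the members, up to 5 others per p53 role, up to 3 per other list by size, the PHLDA and AKT genes, and the 8 genes closest to phlda3. Genes outside that rule (xpc, tp53inp1, dram1, BAX, plk1, VEGFA, PFKFB4, lyz and CARTPT) were chosen after their values were seen. The members, lists and rules were chosen with earlier results of these data known, and some genes of the pathway are not reported here. The recovered reads were also fitted with edgeR 4.0.16 (genotype and stage as terms), and the same fit was afterwards run on simulated reads. Alternatives were the pseudocount, the filter, the scaling, detection in both libraries, the authors' deposited log2 fold change and leaving out genes with a shared symbol.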

Additional observations from a re-analysis of the deposited data

Results flagged for a closer look

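3 p53 list genes differed between genotypes by at least 1.5-fold in opposite directions at the 2 stages. The difference between stages was not tested, since each rests on 1 library per group. cdkn1a had a mutant minus wild-type difference of -0.74 at 7.5 dpf and 2.6 at 5.5 dpf on the log2(RPKM + 1) scale. For PLK2 (ENSDARG00000019130) the differences were 3.44 at 7.5 dpf and -1.98 at 5.5 dpf, and for baxb, a paralog of the pore-forming BAX gene, 0.88 at 7.5 dpf and -1.73 at 5.5 dpf. Of these, PLK2 shares its symbol with another copy, so which copy it is remains unknown, and reads could be split between the copies. The same holds for PLK2 (ENSDARG00000090752) above.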

How the results depend on the processing

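For the members, 86 of 90 recomputed differences kept their direction and their side of 2-fold. Under median-ratio scaling the mdm2 difference between stages in mutant cells, 0.13, was -0.03, and 3 others passed 2-fold: cdkn1a at 7.5 dpf (-1.17), and cdkn1a (-1.07) and phlda3 (-1.06) between stages in mutant cells. Some counts on the p53 list moved by over 1.5 times, in part because fewer genes enter. With a pseudocount of 5 RPKM, 5 of 42 genes were lower at 5.5 dpf, against 13.0% of all tested genes. Between stages in wild type 8 were higher and 4 lower, against 13.9 and 15.6%. With a mean RPKM of at least 10, 21 list genes entered, members among them. Of these, 6 were higher and 3 lower at 7.5 dpf, against 40.0 and 21.2% of all genes so filtered. At 5.5 dpf 9 were higher and 2 lower, against 29.6 and 18.1%, with a median of 0.89, against 0.32. Between stages 4 were higher and 3 lower in mutant cells, against 28.1 and 23.75%. In wild type 8 were higher and 2 lower, against 19.5 and 24.7%. Where both libraries had to pass 3 reads, 25 list genes entered at 7.5 dpf and 28 in each other comparison. Of the 25, 6 were higher and 6 lower, against 35.02 and 21.36% of all genes so filtered. Of the 28 at 5.5 dpf, 11 were higher and 3 lower, against 30.94 and 17.72%. Under this filter 4 of 28 were higher and 6 lower between stages in mutant cells, against 30.04 and 21.44%. The wild-type counts between stages were 13 of 28 higher and 2 lower, against 25.73 and 18.8%. Without genes that share a symbol, a setting chosen after seeing the data, 5 of 36 were higher between stages in mutant cells, against 33.5%. The on and off pattern of phlda3 was met by 240 genes with an RPKM of at least 1 in both mutant libraries. edgeR's quasi-likelihood test of recovered reads over both stages, with 1 residual degree of freedom, called 0 of 11135 genes and 0 of 42 list genes at an adjusted p under 0.05, and 342 and 4 at an unadjusted p under 0.05, which says nothing on stability. The stage term of that fit pairs mutant and wild type within a stage. Its only residual is the change of the genotype difference between stages, so a gene that differs by stage adds to the noise. The common dispersion was 2.77, and nothing is read from the lack of calls. No other pairing or leaving out was possible because each group has 1 library.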
